A study of Mus musculus with 3 samples.

Results

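Exon usage was described in normal adult mouse skeletal muscle, from 1 library of total RNA of a wild-type animal or animals aged 12 weeks, one of 3 libraries of that age in a study of the Rbm20 I538T knock-in. The library holds no mutant allele per its label, and no comparison between genotypes was made. Which muscle was sampled, and from how many animals, the sources used here do not give. With 1 library there is no replicate, so no test was possible and every interval covers counting error only. The measured unit was the exonic part, a stretch of exon between neighbouring annotated exon boundaries, for which the deposited table gives inclusion reads (reads on the part) and exclusion reads (spliced reads that skip it). Members were the parts of genes named singly in the table with at least 100 inclusion plus exclusion reads: 106919 parts of 14745 genes, out of 429043 named parts and 469293 parts in all. The wild-type library held 239837797 inclusion and 53925304 exclusion reads, and the members took 88.8% of its inclusion reads. They had a median of 311 reads and at most 2806395. Just under the limit, 12297 parts had 80 to 99 reads, and just above it, 9751 parts had 100 to 119 reads.

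Inclusion is given as percent spliced in (PSI), the inclusion reads per base over the sum of inclusion and exclusion reads per base. A PSI of 100% means that no read skipped the part, and 0% means that no read fell on it. In muscle, alternative exons change the stiffness of titin, the calcium response of the thin filament and the gating of calcium release, and many switch between birth and adulthood as MBNL proteins take over from CELF proteins. Exons are removed or kept as whole units, so an exon whose length is divisible by 3 can be left out without shifting the reading frame of the exons after it. Mutually exclusive exons are neighbours of which a transcript normally keeps either but not both.

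The exons below carry the main findings and are shown so that the lengths and sequences behind the PSI values can be read. Each is printed 5′ to 3′ on the strand of its gene from the GENCODE M21 transcripts on GRCm38. Capitals mark the exon and lower-case letters mark the last 12 and first 12 bases of the neighbouring exons. The first set comes from Tnnt3, the fast troponin T, in the order of the exons along the gene.
Tnnt3 18-base exon at chr7:142502740-142502757: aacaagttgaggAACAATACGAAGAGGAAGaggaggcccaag
Tnnt3 15-base exon at chr7:142504250-142504264: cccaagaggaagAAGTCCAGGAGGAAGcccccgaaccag
Tnnt3 15-base exon at chr7:142505516-142505530: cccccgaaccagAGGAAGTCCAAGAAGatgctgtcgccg
Tnnt3 41-base exon at chr7:142513665-142513705: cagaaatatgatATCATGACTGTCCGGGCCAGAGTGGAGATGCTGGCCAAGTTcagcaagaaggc
Tnnt3 41-base exon at chr7:142514326-142514366: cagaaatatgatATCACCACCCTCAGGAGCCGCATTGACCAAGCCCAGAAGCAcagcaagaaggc

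The second set holds short exons of genes of the Z-disc, the triad, membrane traffic and calcium signalling. All of their lengths are divisible by 3, except that of the Clcn1 exon.
Ldb3 15-base exon at chr14:34569713-34569727: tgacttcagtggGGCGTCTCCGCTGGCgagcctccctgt
Trdn 30-base exon at chr10:33433701-33433730: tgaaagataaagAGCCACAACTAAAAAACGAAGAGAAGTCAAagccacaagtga
Ryr1 15-base exon at chr7:29056234-29056248: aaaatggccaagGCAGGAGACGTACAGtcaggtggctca
Ryr1 18-base exon at chr7:29044919-29044936: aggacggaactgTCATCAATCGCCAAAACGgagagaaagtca
Atp2a1 42-base exon at chr7:126446545-126446586: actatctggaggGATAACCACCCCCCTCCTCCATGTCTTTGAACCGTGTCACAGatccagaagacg
Clcn1 79-base exon at chr6:42293444-42293522: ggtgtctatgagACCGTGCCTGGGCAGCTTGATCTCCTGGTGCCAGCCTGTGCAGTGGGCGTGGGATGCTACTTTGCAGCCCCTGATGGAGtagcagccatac
Tmed2 21-base exon at chr5:124543487-124543507: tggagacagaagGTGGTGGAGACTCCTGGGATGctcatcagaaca
Ppp3ca 30-base exon at chr3:136932011-136932040: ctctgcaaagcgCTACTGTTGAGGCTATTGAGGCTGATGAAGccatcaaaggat

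The third set holds neighbouring exons of Neb, Rab6a and Mef2d that the annotation never joins in a transcript, where both members of the pair were used in this muscle.
Neb 105-base exon at chr2:52186012-52186116: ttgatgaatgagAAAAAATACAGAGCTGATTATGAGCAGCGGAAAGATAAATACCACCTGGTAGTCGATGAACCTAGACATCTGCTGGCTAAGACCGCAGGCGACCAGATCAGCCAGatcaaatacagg
Neb 105-base exon at chr2:52185271-52185375: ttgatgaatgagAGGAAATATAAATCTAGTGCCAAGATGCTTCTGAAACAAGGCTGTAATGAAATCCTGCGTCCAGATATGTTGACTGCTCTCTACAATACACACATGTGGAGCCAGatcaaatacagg
Rab6a 106-base exon at chr7:100629666-100629771: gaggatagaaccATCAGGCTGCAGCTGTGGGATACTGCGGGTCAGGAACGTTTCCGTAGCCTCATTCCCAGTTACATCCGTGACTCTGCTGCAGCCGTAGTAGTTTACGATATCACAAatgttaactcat
Rab6a 106-base exon at chr7:100629838-100629943: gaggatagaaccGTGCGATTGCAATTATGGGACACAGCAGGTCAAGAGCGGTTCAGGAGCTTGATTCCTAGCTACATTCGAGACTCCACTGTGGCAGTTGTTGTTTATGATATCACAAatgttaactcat
Mef2d 138-base exon at chr3:88158034-88158171: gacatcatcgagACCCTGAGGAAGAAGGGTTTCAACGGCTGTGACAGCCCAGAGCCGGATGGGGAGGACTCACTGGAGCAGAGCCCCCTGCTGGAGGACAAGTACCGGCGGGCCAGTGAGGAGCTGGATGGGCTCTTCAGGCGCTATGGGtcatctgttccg
Mef2d 135-base exon at chr3:88158221-88158355: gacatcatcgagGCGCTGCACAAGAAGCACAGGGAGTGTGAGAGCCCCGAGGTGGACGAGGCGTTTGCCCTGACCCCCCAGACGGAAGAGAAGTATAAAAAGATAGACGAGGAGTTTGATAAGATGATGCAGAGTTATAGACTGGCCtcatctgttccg

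The library had the profile of fast skeletal muscle. Levels per gene are inclusion reads per 1000000 inclusion reads of the library (RPM) or, between genes, the same per kilobase of effective length (RPKM). The effective length adds to each part the fixed exclusion length of the PSI formula, so a gene cut into many short parts has a lower value than per kilobase of its exons. The 10 fast-fibre markers summed to 136120 RPM, or 13.6% of inclusion reads, and the 8 slow-fibre markers to 1973 RPM, or 0.197%. Of the 4 adult myosin heavy chain genes set side by side per kilobase, Myh4, the type IIb chain, held 88.5% of the sum. Myh1, the IIx chain, held 7.60%, Myh2, the IIa chain, 3.07%, and Myh7, the slow chain, 0.801%. These genes are near-identical in places, so their shares are uncertain.

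Muscle genes made up 7 of the 15 genes of highest RPKM, below Gm23935, a predicted gene at 15827 RPKM. Tnnc2, the fast troponin C, stood at 13205 RPKM, in counts that cannot be told apart from its overlapping neighbour Ube2c unless strand was used. Acta1, the skeletal actin, stood at 10591, Pvalb, the calcium buffer parvalbumin, at 8854, and Tnnt3 at 6206 RPKM. Myl1 and Mylpf, both fast myosin light chains, stood at 5313 and 5150, and Tnni2, the fast troponin I, at 4859 RPKM. The rest of the 15 included the mitochondrial genes mt-Ts1, mt-Co1 and mt-Rnr2. Annotated mt-Ts1 and mt-Co1 overlap on opposite strands, so reads on the overlap cannot be told apart unless strand was used. Beside Gm23935, the others were Gm29216 (12272 RPKM), Gm28437 (10564 RPKM), Gm10925 and CT010467.1. The nuclear genes among these are uncertain since their reads may be shared with other copies. Together the 15 took 23.4% of inclusion reads, and genes of the mitochondrial genome took 6.33%. A level of 5 RPM or more was reached by 8458 genes, with a median of 17.4 RPM among them.

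Markers of other cell types were present, and their part in the exon usage was not tested. The 5 fat markers summed to 3431 RPM, led by Fabp4 at 2124 RPM, with the defining marker Adipoq at 176 RPM. The immune and blood markers summed to 4281 RPM, nearly all from the globin genes Hbb-bs (2703 RPM) and Hba-a1 (1550 RPM). Fibroblast and tendon markers summed to 975 RPM, led by Dcn at 829 RPM, over the 4 of 6 that the table names singly. Smooth muscle and pericyte markers summed to 236 RPM (highest Acta2, 99.5 RPM), developing-fibre markers to 123 RPM (Myh8, 100.3 RPM), nerve markers to 117 RPM (Pmp22, 65.9 RPM) and endothelial markers to 103 RPM (Kdr, 28.8 RPM). Satellite-cell markers summed to 1.65 RPM (Pax7, 1.52 RPM) with Calcr at 0 reads. The 4 heart markers named singly summed to 17.4 RPM, with Myh6 at 16.9 RPM and Nppa at 0 reads, for which a floor of 3 reads would be 0.0125 RPM. Myh8, Myh6 and the developing-fibre marker Myh3 (18.4 RPM) are myosin heavy chain genes, and values of this family are uncertain. The developing-fibre markers outside the family, Myog, Mymk and Chrng, were at 2.36, 1.03 and 0.946 RPM. Rbm20 itself, the splicing repressor of titin exons that the study altered in its other groups, had 3110 inclusion reads. All 6 of its 19 parts that had enough reads were at a PSI of 100%. They include the 1301-base and 1700-base parts of its last exon, beyond which there is no exon for a skipping read to join.

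**Figure D1:**
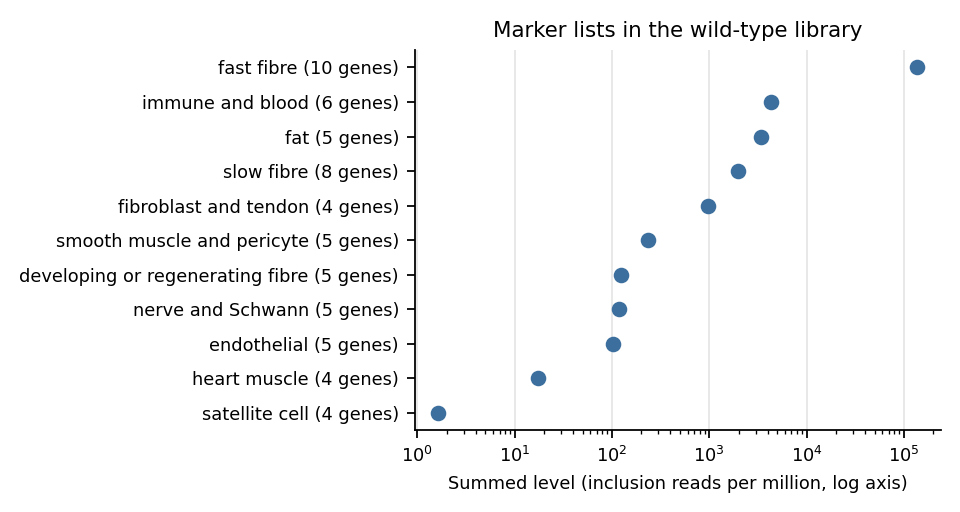
Summed level of each marker list in the wild-type library, in RPM on a log axis, with the number of its genes that the table names singly. Fast-fibre genes stand at 136120 RPM, slow-fibre genes at 1973 RPM, and satellite-cell genes at 1.65 RPM.

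Most exonic parts were either always kept or hardly used. Parts were called skipped at a PSI of 5% or less, included at 95% or more and intermediate between these limits. Of the 106919 members, 14428 (13.5%) were skipped, 14079 (13.2%) were intermediate and 78412 (73.3%) were included, and 73761 of the included parts were at exactly 100%. The intermediate parts lay in 4957 genes. Taking the single deepest part of each gene gave 6.80% intermediate, so the share describes parts and not genes. Coding parts were intermediate in 9.64% of 72210 cases and skipped in 3.48%. Parts annotated in untranslated regions of coding transcripts were intermediate in 14.6% of 15849 cases and skipped in 11.9%. Parts held only by noncoding transcripts, such as retained-intron models, were skipped in 53.3% of 18698 cases and intermediate in 25.3%. Parts used only as a first exon were skipped in 33.1% of 19787 cases, against 17.1% of the 26510 used only as a last exon.

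A clearer unit is the standalone exon, a part that equals a whole annotated exon, lies inside every transcript that overlaps it and holds coding sequence. There were 24432 of these in 5971 genes: 642 (2.63%) were skipped, 2240 (9.17%) intermediate and 21550 (88.2%) included. A skipping junction was called supported when its reads per base came to 5% or more of the gene's own coverage, taken as the 90th percentile of inclusion reads per base over its parts. This sets aside exons with few skipping reads beside the gene's coverage, whether partly skipped or thinly covered. With that demand, 1819 standalone exons, 7.45% of those measured, were intermediate, and 925 of the 5971 genes (15.5%) held at least 1. Of these genes, 622 held exactly 1, while 56 genes with at least 5 held 602 of the 1819 exons.

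A single long skip can place many exons of a gene in the intermediate class. Of the 1819 exons, 456 (25.1%) had the same exclusion count as at least 2 other standalone exons of their gene, and leaving these out left 1363 exons in 873 genes. Tln1, the adhesion protein talin, had 17 of 23 measured exons in the class on 1 shared count of 22 reads. Abcb4, a lipid transporter, had 22 of 22, 19 of them on a count of 50 reads. Mybpc2, which binds myosin in fast fibres, had 16 of 23, 15 of them on a count of 2958 reads. Coverage along genes was uneven as well. In the 72 genes with at least 20 standalone exons, ordered 5′ to 3′ and divided into 3 equal runs, the median density of the first run was 53.2% and of the middle run 50.02% of the densest run, and the last run was the densest in 46 genes.

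Depth moved with the class. Among standalone exons with 100 to 199 reads, 6.80% were intermediate and 1.40% skipped, and among the 600 exons with at least 10000 reads, 26.2% were intermediate and 60 exons were skipped. These 600 exons lay in only 184 genes, so high depth and the identity of the gene cannot be told apart.

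**Figure D2:**
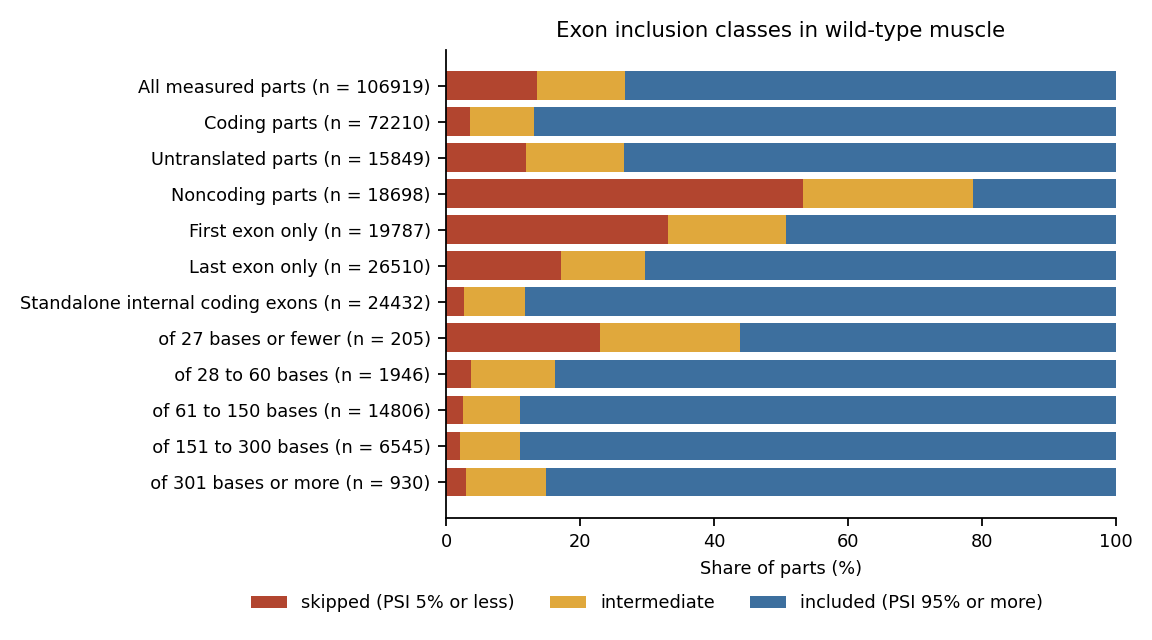
Share of parts (x axis, %) that were skipped, intermediate or included, for parts grouped by what the annotation holds there and for standalone exons grouped by length, with the number of parts in each row. Noncoding parts were skipped in 53.3% of cases, coding parts in 3.48%, and exons of 27 bases or fewer in 22.9%.

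Reading frame differed between the classes, and part of the difference came with Ttn and Neb. Among exons that are coding over their whole length, 882 of 1677 intermediate exons with a supported junction (52.6%, Wilson interval 50.2 to 55.0%) had a length divisible by 3. The share was 47.4% (42.7 to 52.2%) in skipped exons and 40.7% (39.99 to 41.3%) in included exons. Within the supported class it was 54.3% at a PSI of 5 to 20%, 59.4% at a PSI of 20 to 40%, 59.7% at 40 to 60%, 62.1% at 60 to 80% and 45.3% at 80 to 95%. In the 412 intermediate exons without a supported junction the share was 63.8% (59.1 to 68.3%), above that of the supported class. In Ttn 295 of 346 measured exons, and in Neb 151 of 157, had lengths divisible by 3. Leaving out both genes gave 41.4% (35.2 to 47.9%) in these unsupported exons, 49.7% (47.2 to 52.1%) in the supported class, 46.6% (41.9 to 51.4%) in skipped and 40.3% in included exons (8376 of 20760). Outside these 2 genes, the interval of the supported class lay above the included share, while that of the unsupported exons held it. Exons of 1 gene are not independent, and the intervals do not cover that. A further set put Ttn and Neb back and left out the exons that share an exclusion count with others of their gene. The shares were then 54.4% in intermediate, 55.4% in skipped and 40.5% in included exons. Its supported intermediate exons held 65 of Ttn and 21 of Neb. The median length was 108 bases in intermediate, 108 in skipped and 120 in included exons. The last base of the exon, at the donor side, was G in 80.4% of intermediate, 70.6% of skipped and 79.6% of included exons. Shared sequence moved with the classes too: 20.3% of intermediate, 19.5% of skipped and 8.87% of included exons had at least 20% of their 25-base words in another gene.

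**Figure D3:**
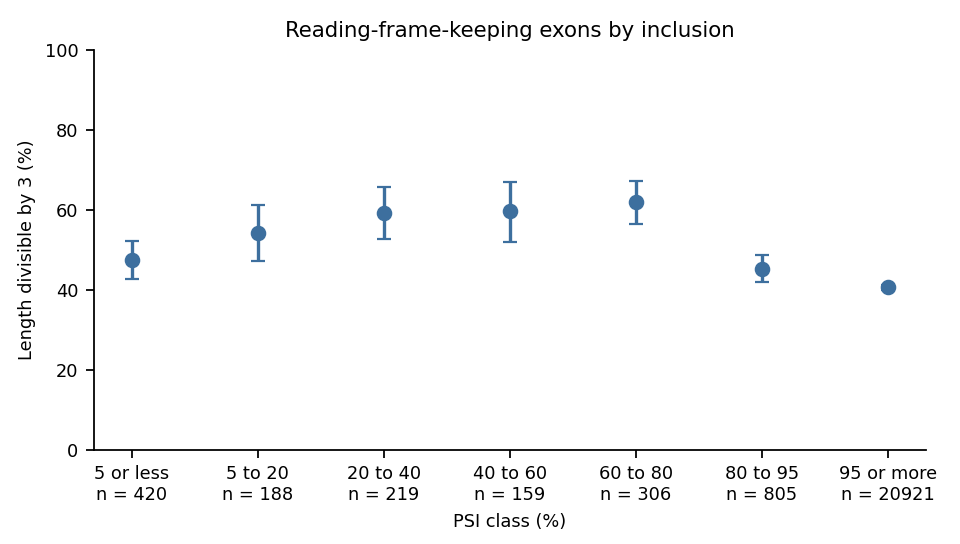
Share of fully coding standalone exons whose length is divisible by 3 (y axis, %) by PSI class (x axis, %), with 95% Wilson intervals and the number of exons. Classes between 5 and 95% hold only exons with a supported junction, and all genes are included, Ttn and Neb too. The share is 40.7% in exons at a PSI of 95% or more and between 54.3% and 62.1% in the 4 classes from 5 to 80%.

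The classes differed in size between short and longer exons. Of the 205 standalone exons of at most 27 bases, 22.9% were skipped, 20.98% intermediate and 56.1% included, where the 14806 exons of 61 to 150 bases had 2.44%, 8.50% and 89.1%. Among these microexons, 38 of 43 intermediate, 22 of 47 skipped and 62 of 115 included ones had a length divisible by 3. The deepest intermediate ones were in Tnnt3 and Ldb3. Psap, the precursor of the lysosomal saposins, had a 9-base exon with 903 inclusion and 1283 exclusion reads, a PSI of 39.7%. Anxa6, a calcium-dependent membrane-binding annexin, had an 18-base exon at 75.4% (698 inclusion, 200 exclusion reads). Vps29, a subunit of the retromer complex that returns cargo from endosomes, had a 12-base exon at 28.5% on 145 and 333 reads. At the low end, a 15-base exon of Chchd3, a protein of mitochondrial cristae, had 0 inclusion and 2916 exclusion reads. These microexons were singled out after their values were seen.

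Genes of the contractile apparatus held many of the intermediate exons. Over all 7 gene lists, 319 of 1958 standalone exons (16.3%) were intermediate with a supported junction, beside the 7.45% of all genes, and they lay in 63 genes. Without Ttn and Neb the count was 219 of 1505. The thick filament and M-band list had 183 of 629 (29.1%), in 9 of 16 genes, with a median PSI of 33.4% among the 183. Leaving out Ttn gave 115 of 321 (35.8%), of which 47 were myosin exons that share sequence with another gene. Myh4, Myh2 and Myh1 supplied 36, 22 and 17 of the 115, and values of this family are uncertain. Mybpc2 supplied 16, of which 15 had the same 2958 exclusion reads. With Ttn kept and exons of shared sequence left out, the list had 136 of 552 (24.6%), beside 6.59% of all genes. The thin filament list had 42 of 209 (20.1%), in 6 genes, and Neb supplied all but 10 of them. The list of genes known to switch after birth or to be regulated by MBNL or CELF proteins had 41 of 282 (14.5%), in 22 of 34 genes. Over all genes with a standalone exon, 15.5% held at least 1 such exon. Listed genes had more measured exons per gene (282 in 34 genes, beside 24432 in 5971), so these gene shares are not alike. Lrrfip1 alone supplied 12 of the 41, 7 of them on a shared count of 55 exclusion reads. Leaving out exons with a shared exclusion count gave 31 of 272 (11.4%) in this list, beside 5.92% of all genes. The splicing factor list had 9 of 73 (12.3%), the Z-disc and costamere list 22 of 275 (8%), the triad and calcium list 16 of 337 (4.75%), and the metabolism list 6 of 153 (3.92%). The shares of the Z-disc, triad and metabolism lists are near or below that of all genes. These counts depend on the support asked for. At 10% in place of 5%, the share over all genes was 5.18%, that of the thick filament list 28.1%, the postnatal list 13.5% and the thin filament list 11.5%, while the splicing factor list came to 6.85% (5 of 73), the Z-disc list to 4.73%, the metabolism list to 3.92% and the triad list to 2.37%.

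**Figure D4:**
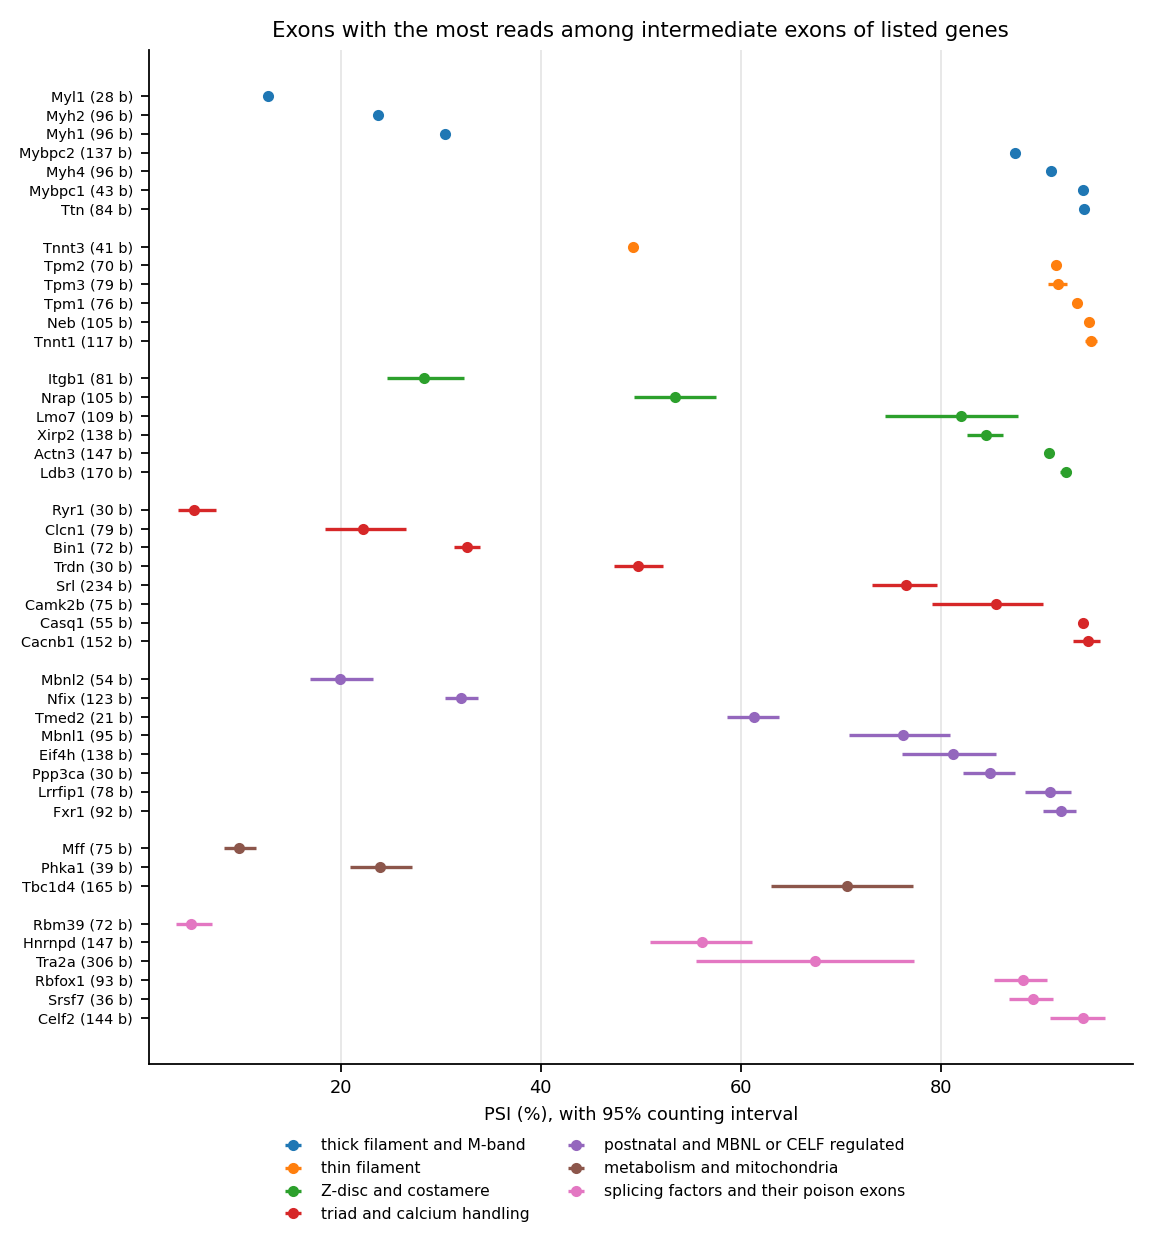
PSI (x axis, %) with its 95% counting interval for the intermediate exon with the most reads in each listed gene, up to 8 genes a list, coloured by list and labelled with the exon length in bases. Exons that share at least 20% of their 25-base words with another gene are left out. Tnnt3 and Trdn lie near 50%, whereas the tropomyosin exons lie above 90%.

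Tnnt3 ties the thin filament to calcium through troponin, and its first coding exons are short and variable. Its 18-base exon had 94664 inclusion and 221540 exclusion reads, a PSI of 27.3% (27.2 to 27.5%). The 15-base exon at chr7:142504250-142504264 had 312276 and 59506 reads, a PSI of 82.5%. A 12-base part at chr7:142505288-142505299 was close to it at 80.6%, while the 15-base exon at chr7:142505516-142505530 stood at 19.97% on 82546 and 296775 reads. None of these 4 was either included or skipped, so several forms of the amino end were present together. An 8-base exon between them was at 0.08% and was hardly used.

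The carboxyl end of Tnnt3 was split almost evenly. The first 41-base exon had 332535 inclusion and 260919 exclusion reads, a PSI of 49.3% (49.1 to 49.4%), and the second had 341290 and 233449 reads, a PSI of 52.7% (52.6 to 52.8%). The PSI values add to 101.9%. Both exons have the same length but only 18 of 41 bases in common, so reads can be told apart. A pair of 19-base exons showed the opposite picture: one had 89 inclusion and 385217 exclusion reads (PSI 0.02%), and the other 422125 inclusion and no exclusion reads (100%).

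Tropomyosins, the coiled coils that cover actin, kept the main internal exons given here at 87.9 to 93.5%. Tpm1 kept the 76-base exon at chr9:67031951-67032026 at 93.5% (370156 inclusion, 16158 exclusion reads), while its alternative at chr9:67032466-67032541 was at 1.25%. A 126-base exon near the 5′ end of Tpm1 was at 1.16%. Tpm2 kept one 76-base exon at 87.9% and the other at 2.61%. Of its 23 measured parts, 11 were intermediate, 8 of them with a supported junction. Tpm3, the slow-fibre tropomyosin, had a 79-base exon at 91.6% and a last coding exon of 200 bases at 78.4%. Tnnt1, the slow troponin T, had a 117-base exon at 94.99%, just under the limit. Capzb, the capping protein of the actin barbed end, skipped its 144-base exon with 0 inclusion and 3427 exclusion reads and kept the next coding exon at 98.5%.

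Myl1 encodes long and short alkali light chains that start from separate promoters. Its 28-base internal exon had 43238 inclusion and 244795 exclusion reads, a PSI of 12.7%. Mybpc1, the slow myosin-binding protein C, had a 43-base exon at 94.2%. In Mybpc2 the exon with the most reads stood at 87.3% and a 160-base exon at 58.4%, with the same 2958 exclusion reads behind both. Myom1, the myomesin of the M-band, had a 23-base exon at 0.75% next to a 23-base exon at 100%. Exons of Myh4 (91.0%), Myh1 (30.4%), Myh2 (23.7%) and Myh7 (61.7%) also entered the class. All 36 measured exons of Myh4 did, 17 of them with shared words, and values of this family are uncertain.

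Titin, the spring and ruler of the sarcomere, had the longest run of partly used exons. Its longest coding transcript has 347 exons, of which 346 were measured (GRCm38 chr2:76703980-76982455, minus strand). Exons 1 to 10 were all at 99.96% or more. Exons 11 to 13, which lie in the Z-disc part of the gene, lay between 2.22% and 16.2%, on 117 to 751 inclusion and 1930 to 2513 exclusion reads. Exons 14 to 28 were all included, at 97.2% or more.

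The I-band exons 114 to 202 showed no included exon. Of these 89 exons, 81 were intermediate with a supported junction and 8 were skipped, with a median PSI of 40.3%. All 89 have lengths divisible by 3. The 89 exons sum to 8031 bases, and weighting each by its PSI gives 3672 bases per transcript on average. Within the run, exons 160 to 163 lay between 3.24% and 5.80%, exons 172 to 181 between 2.34% and 7.005%, and exons 195 to 198 between 5.59% and 6.48%. Between these low blocks exon 171 stood out at 52.4% (6522 inclusion, 3564 exclusion reads), and exons 192 and 194 were at 72.9% and 71.0%. The upstream end of the run was used most, with exon 114 at 86.1% and exon 120 at 94.3%. At the M-band end, exon 345 was at 84.6% and exon 346, of 303 bases, at 50.3% (6914 and 2063 reads).

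Other titin exons below 95% had few exclusion reads beside the gene's coverage. Whether skipping or thin coverage lowered their PSI was not tested. In exons 14 to 113, 72 of 100 were below 95%, and in exons 203 to 344 this held for 108 of 141 measured exons. None of these had a supported junction. Exons 71 and 100 had the same 150 exclusion reads, but 193 and 10492 inclusion reads, which gave PSI values of 28.7% and 95.6%.

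Nebulin, the giant ruler of the thin filament, was variable in 4 places of its 157 exons. Exons 4 to 8 lay between 92.4% and 94.7% on a shared count of 1049 exclusion reads. Exons 58 to 76, in the repeated middle of the protein, were all intermediate with a supported junction, between 25.1% and 90.9% with a median of 66.8%. All 19 of these exons have lengths divisible by 3. Exons 73 to 76 had the same 278 exclusion reads but between 171 and 2183 inclusion reads, which gave PSI values from 25.5% to 69.9%. Whether skipping or thin coverage set these values was not tested. Near the Z-disc end, exons 146 to 151 were all intermediate, with the lowest at 11.4% in exon 147 (308 inclusion, 1403 exclusion reads), and exons 138, 140 and 143 stood at 41.7%, 79.3% and 47.97%. Of the 69 exons from 77 to 145, 62 were included. In exons 45 to 57 all 13 values were below 95% without a supported junction.

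The 105-base pair of Neb completed this picture. The upstream exon had 1513 inclusion and 977 exclusion reads (46.2%) and the downstream one 2096 and 927 reads (55.7%), adding to 101.9%. Only 40 of 105 bases are identical between them.

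**Figure D5:**
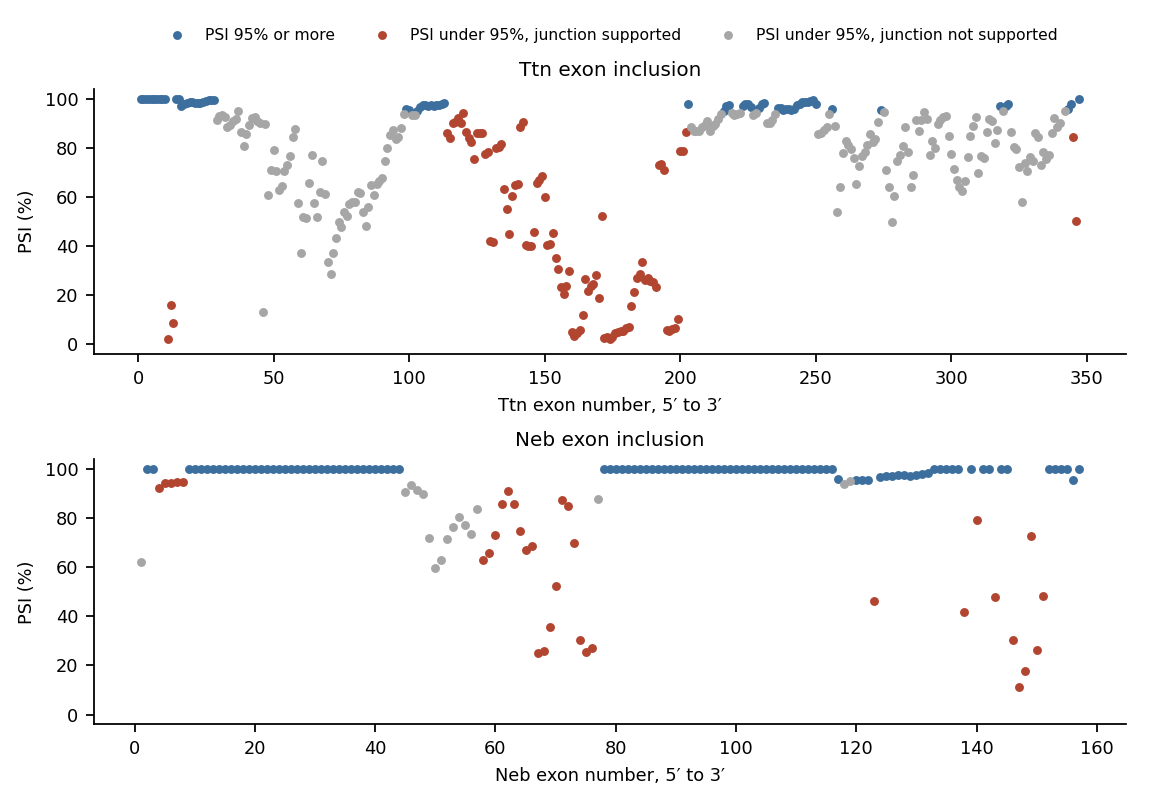
PSI (y axis, %) of each measured exon of Ttn and Neb along the longest coding transcript, numbered 5′ to 3′ (x axis). Colours separate exons at 95% or more, exons below 95% with a supported skipping junction and exons below 95% without one. Ttn exons 114 to 202 and Neb exons 58 to 76 lie below 95% throughout.

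At the Z-disc, Ldb3, which links alpha-actinin to signalling proteins, had 4 intermediate exons of 12. Its 15-base exon stood at 76.1% (7428 inclusion, 2093 exclusion reads). Exons of 170 and 37 bases shared 680 exclusion reads and stood at 92.4% and 92.5%, while a 186-base exon was at 8.29% on 169 and 773 reads. Nrap, a scaffold of myofibril assembly, had a 105-base exon at 53.4%, and Itgb1, the beta 1 integrin that anchors the fibre to its matrix, an 81-base exon at 28.3%. Xirp2 (84.5%), Lmo7 (82.0%) and Actn3 (90.8%), all actin-associated proteins, lay higher. Pdlim5, a PDZ-LIM adaptor, had a 26-base exon with 0 inclusion and 2853 exclusion reads, which allows a PSI of up to 0.11%.

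Among triad genes, Atp2a1 and Ryr1 had small exons at high PSI. Atp2a1, the fast calcium pump, had 197096 inclusion and 5374 exclusion reads on the 42-base exon whose retention marks the adult form of the pump, a PSI of 96.5%. Ryr1, the calcium release channel, has 2 small exons known to be gained as muscle matures: the 15-base exon was at 79.7% (72.5 to 85.3%, with 30 exclusion reads) and the 18-base exon at 94.2% (90.6 to 96.5%, with 14 exclusion reads). Neither had a supported junction. A 30-base and a 27-base exon of Ryr1 were at 5.32% and 2.69%, both on 420 exclusion reads.

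Other triad exons lay in the middle. Trdn, which anchors the release complex, had a 30-base exon at 49.8% (868 and 713 reads). Clcn1, the muscle chloride channel, had a 79-base exon at 22.3% (102 and 222 reads) next to another of 79 bases at 87.4%. This length is not divisible by 3, so including or leaving it out moves the frame. Bin1, which shapes the T-tubule membrane, had a 72-base exon at 32.6% (2011 and 2679 reads), and 3 more of its exons were at 0.13%, 0.82% and 2.05%. Srl, a calcium-binding protein of the reticulum, had a 234-base exon at 76.5%. Camk2b, a calmodulin-dependent kinase, had an exon at 85.5% (195 and 21 reads) and one at 58.2% (47.8 to 67.9%, 78 and 30 reads). A 33-base exon of Camk2b had 0 inclusion and 214 exclusion reads. Casq1 (94.2%), the calcium store protein, and Cacnb1 (94.7%), a channel subunit, were just under the limit. All 34 measured standalone exons of Cacna1s, the voltage sensor, and all 33 of Dmd, dystrophin, were included. Over parts of any kind, Cacna1s had 1 intermediate and 2 skipped among 45 measured of 56. Dmd had 3 intermediate and 2 skipped among 45 measured of 105.

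Exons of genes known to switch after birth lay across the scale. Fxr1, an RNA-binding protein of the fragile X family, kept its 81-base and 92-base exons at 92.1% and 92.0%. An 87-base coding part of Fxr1, not a standalone exon, was at 65.2% (664 and 213 reads). Ppp3ca, the catalytic subunit of calcineurin, kept a 30-base exon at 84.9% and Eif4h, a translation initiation factor, a 138-base exon at 81.2%. Tmed2, a cargo receptor of early secretory traffic, had a 21-base exon at 61.3% (901 and 491 reads). Nfix, a transcription factor of muscle maturation, had a 123-base exon at 32.1%. Mbnl1, the splicing regulator itself, had its 54-base exon at 3.31% (10 and 207 reads) and a 95-base exon at 76.2%, and the 54-base exon of Mbnl2 was at 19.9%. Mef2d used the downstream exon of its pair at 75.4% (299 and 48 reads) and the upstream one at 18.9% (83 and 173 reads). Gnas, the stimulatory G protein alpha subunit and not on any list, had a 45-base exon at 51.6% (4091 and 2861 reads).

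Metabolic genes held few partly used exons. Mff, a receptor of mitochondrial fission, had a 75-base exon at 9.85%, Phka1, the muscle phosphorylase kinase subunit, a 39-base exon at 23.9%, and Tbc1d4, which controls glucose transporter traffic, a 165-base exon at 70.6%. Atp5c1, a subunit of ATP synthase, left out its 37-base exon in most transcripts (4.52%, 1181 and 19463 reads), and a 139-base exon of Mpc1, a subunit of the pyruvate carrier, was at 0.51%. The phosphate carrier Slc25a3 had neighbouring exon parts at 9.99% and 94.5%. Pkm, Pfkm and Cpt1b lay in merged gene groups and were not analysed here.

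Among splicing factors, Hnrnpd had a 147-base exon at 56.1%, Tra2a a 306-base exon at 67.4% and Rbfox1 a 93-base exon at 88.2%. Srsf7 had a 36-base exon at 89.2%, Celf2 exons at 94.2% and 0%, and Rbm39 exons at 5.08% and 1.06%. The exon of Tra2a had 117 inclusion and 17 exclusion reads, and that of Srsf7 had 840 and 80. The 67-base exon of U2af1 (87.7%) shares sequence with another gene and is uncertain.

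Neighbouring standalone exons that share no annotated transcript and whose PSI values add to between 80 and 120% formed 70 pairs in 67 genes. In 57 pairs muscle used one exon and skipped the other, and in 13 both were intermediate. The sum was part of the rule and is no finding. In listed genes, Asph skipped its 45-base exon (2.33%) for a 42-base one (99.2%), and Pdlim3 its 188-base exon (2.58%) for one of 68 bases (98.1%). Outside the lists, Clip1, a protein of microtubule ends, skipped a 2268-base exon at 0.37%, and Thap4 and Gpcpd1 had exons at 0% and 0.73%. Pitpna, a phosphatidylinositol transfer protein, had an 11-base exon at 0.86% and an 8-base one at 99.1%. Gm10719, which is rich in repeats, is uncertain.

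The pairs used on both sides include signalling, traffic and adhesion genes. Rab6a, a Golgi GTPase, used the downstream exon at 78.8% (491 and 73 reads) and the upstream exon at 23.0% (118 and 218 reads), with 76 of 106 bases identical. The downstream exon has 20.8% of its 25-base words in another gene, so its value is uncertain. Snap23, a membrane fusion protein, had exons at 78.0% and 24.6%, and Rbfox1 at 10.1% and 92.7%. Itga7, the laminin receptor of muscle, had exons at 50.4% and 58.9%, Fyn, a Src-family kinase, at 35.8% and 64.4%, and P4ha1, a collagen prolyl hydroxylase, at 53.7% and 49.3%. Plpp1, a lipid phosphatase, had exons at 41.1% and 62.2%. In Tusc3 both exons are identical over all 91 bases, so their values of 57.8% and 43.3% cannot be told apart.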

How the data were processed

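The authors deposited, for each exonic part and library, raw counts of inclusion and exclusion reads and a PSI fraction, per the file headers. Libraries were made with a SMART-seq kit and Nextera XT and sequenced on a NovaSeq, per the labels' protocols. Per the submitters' processing notes, the build was GRCm38 and the tools included TopHat2 2.0.14 and Bowtie 1.1.1 beside the trimmers Trimmomatic 0.32 and cutadapt 1.1. How parts were counted, and whether by strand, the sources used here do not say. The deposited PSI fraction equals, within 5e-07, the value recomputed here: inclusion reads over length plus 131, divided by that plus exclusion reads over 131. Gene levels per kilobase divide by the sum over the gene's parts of length plus 131. Only the wild-type columns were used. Reads without molecular identifiers are not independent molecules, so the 95% Wilson intervals, carried to the PSI scale, cover counting error only.

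Exons, coding sequence and sequences come from GENCODE M21, and 99.6% of named parts lie inside its exons. Exon numbers are those of the longest coding transcript. No genome was used, so splice sites and intronic motifs were not analysed and only exonic ends are described. A total of 1405 merged groups of overlapping genes were left out. Exons with at least 20% of their 25-base words in another gene's transcripts are called uncertain. The scripts (scipy 1.17.1 and pandas 2.3.3 under Python 3.11.15) were tested on simulated data. The members, the gene lists and the exons described were chosen with earlier results of these data known. The named exons are, per list, the intermediate exon with most reads in up to 8 genes and the lowest in up to 2, the textbook exons of 20 muscle genes, the deepest at 40 to 60% and the exclusive pairs. A few genes chosen this way are left unreported here.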

Additional observations from a re-analysis of the deposited data

Results flagged for a closer look

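Parts of merged overlapping genes, which were left out above, hold 9.57% of the inclusion reads of the wild-type library. They number 40250 in 1405 groups, and 12588 of them reach 100 reads. Pkm, Pfkm and Cpt1b are among the genes held there.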

How the results depend on the processing

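The share of parts called intermediate (13.2%) was 11.6% at a minimum of 10 reads and 10.6% at 500 reads, 8.87% with limits of 10% and 90%, and 17.8% with limits of 2% and 98%. It was 13.9% by the raw share of inclusion reads, 13.4% with merged genes, 6.80% with 1 part per gene, 13.8% with touching parts of equal exclusion count joined, 12.0% with a supported junction only, and 9.17% in standalone exons (a setting chosen after seeing the data). List counts moved by more than 1.5 times as follows. Without a demand on the junction (9.17% of all standalone exons), the thick filament list gave 364 exons (57.9%) and the triad list 30 (8.90%). With support at 10% (5.18% of all), the thin filament list gave 24 (11.5%), the Z-disc list 13 (4.73%), the triad list 8 (2.37%) and the splicing factor list 5 (6.85%). At 500 reads (10.1% of all), the triad list gave 10 (5.85%), the postnatal list 17 (26.2%) and the metabolism list 2 (2.20%), and limits of 10% and 90% (5.36% of all) gave 8 triad exons (2.37%). The frame-keeping share of intermediate exons was 56.0% with limits of 10% and 90%, 56.7% with support at 10%, 55.2% without shared words and 49.7% without Ttn and Neb (both chosen after seeing the data). Of the 15 genes of highest level, 11 were kept with the 90th percentile of reads per base. The raw share lay above the PSI by a median of 5.60 points over 205 named exons, at most 29.5 points, and the deposited PSI changed none of them. No paired analysis was possible because a single library was described. Depth limits exons near 100 reads, where intervals span over 10 points in Ryr1.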
